A study of Mus musculus with 8 samples.

Results

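Transcript levels of 38 genes of glycolysis and of the response to low oxygen were followed in mouse B-lymphoid cells that carried a c-jun knockout or were wild type. The genes were the glucose and lactate transporters, the glycolytic enzymes, 3 regulators of glycolytic flux, the genes that sense oxygen for the hypoxia-inducible factor HIF, and HIF target genes outside glycolysis. A gene was measured by the probe set that carried its symbol and no other, and by the brightest of these where there were several. On that rule 35 of the 38 genes were measured, out of 19937 genes in all. The RefSeq gene table lists pseudogenes named after 7 of the 35 (Aldoa, Pgk1, Pgam1, Ldha, Ldhb, Vhl and Bnip3l), and signal from a gene and from such a near copy cannot be told apart here. The genome positions of the probe sets were not checked. For most of the 35 genes the probe set numbers follow the order of chromosomes. The numbers of those used for Pgam1, Bnip3, Higd1a, Ldhb and Hk1 fall among genes on chromosomes other than their own. These probe sets may read a copy of the gene, which was not tested. Gpi1 and Eno1 had 0 probe sets under their names, so that only their promoter windows were used. Gapdh appeared only on 11 probe sets that each carry 4 to 8 symbols and was described apart.

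The series deals with BCR-ABL driven lymphoid leukemia and with c-JUN and Cdk6. It holds 8 samples, 4 per genotype, each on 1 Affymetrix MoGene 1.0 ST array. All samples share the strain label SW129/C57BL/6J and the cell label B-lymphoid, with no treatment, time or age in the labels. Whether the cells carried BCR-ABL, which part of Jun was deleted and whether samples of 1 genotype were grown or taken separately is not stated in the labels, so a p-value here covers only how far these samples differ, part of which may be technical. Sample titles follow 2 patterns, called RO and D/F below, and each pattern holds 2 samples of either genotype. Replicates 1 and 2 of a genotype have RO titles, and replicates 3 and 4 are D/F-titled. What the titles stand for is not stated, and the replicate numbers pair no samples.

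Glycolysis turns glucose into pyruvate and lactate in the cytosol and yields ATP without oxygen. Proliferating lymphoid cells and leukemic cells are known for high glycolytic flux even when oxygen is present. When oxygen is low, the prolyl hydroxylases of the EGLN family stop marking HIF-1α for destruction by the VHL ubiquitin ligase, and HIF then binds a short core sequence near its target genes, among them most glycolytic enzymes, Slc2a1, Pdk1, Vegfa, Car9 and Bnip3.

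The targeted gene and the gene of the series title separated by genotype. Jun signal was 6.99, 6.46, 7.02 and 6.97 in the knockout samples and 8.82, 8.84, 10.55 and 8.77 in the wild-type samples, both in order of replicate as throughout, a knockout minus wild type difference of -2.38 (limma, SE 0.32, adjusted p = 0.106; 2-sided exact permutation p = 0.0286). Cdk6, a G1 cyclin-dependent kinase, differed by -2.48 (SE 0.56, adjusted p = 0.878; exact permutation p = 0.0286, the smallest the 70 assignments allow). Unlike the limma fit, the permutation test took no account of the title pattern. Of the 10 measured B-lineage markers, 9 lay above the array median on every array, and their summed signal was 15.59 to 15.77 in knockout and 15.59 to 15.70 in wild-type samples on the log2 scale. The summed myeloid markers ran from 10.41 to 11.26 and from 10.26 to 11.60, the T and NK markers from 9.51 to 10.33 and from 9.52 to 11.29, the erythroid and megakaryocyte markers from 8.92 to 9.33 and from 9.04 to 9.54, and the stromal and endothelial markers from 10.81 to 11.30 and from 10.83 to 11.25, in knockout and wild-type samples. No marker of those 4 lists had a mean signal over 10. Array medians ran from 6.93 to 7.42, and a gene near the bottom of the scale moved with them. In bulk samples of this kind, fewer cells of a type and less RNA per cell cannot be told apart, and 8 arrays bound how precise any difference can be.

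Promoter sequences were set beside the expression values because HIF binds the core ACGTG or GCGTG. In addition, c-JUN dimers bind the AP-1 letters TGACTCA or TGAGTCA, and TGACGTCA. The AP-1 search used the wider TGANTCA, where N is any base, so TGAATCA and TGATTCA were counted too. RefSeq promoters on GRCm38.p6, each from 250 bases before to 50 bases after a transcript start, were found for 35 of the 38 genes, with 50 windows in all. Slc2a3, Bnip3l and Ndrg1 had no entry. On either strand, ACGTG stood in 54% of the 50 windows and in 19.6% of all 32851 windows of the same length. GCGTG stood in 58% and 32.4%, and either of the pair in 78% and 43.8%. CACGTG, which contains ACGTG on both strands, stood in 12% and 7.15%. TGANTCA stood in 8% and 7.81%, in Aldoa, Car9 and Kdm3a, and these shares are not those of the narrower AP-1 letters. TGACGTCA stood in 2% and 1.79%, in Ldha alone among these genes. The median GC content was 62.5% in the 50 windows and 52.7% in all windows, and its part in these shares was not tested. A match is a run of letters and not a measured binding site.

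Printed here are the 250 bases before the start of the 3 genes with an ACGTG or GCGTG match and the smallest p for the title difference, namely Egln3, Pgam1 and Slc16a1, and of Ldha, which was chosen after its motifs were seen because it held TGACGTCA. The title p of Pgam1 comes from a probe set that may not lie at this gene. Sequences run 5′ to 3′ on the strand of the gene. Capitals mark the ACGTG core on either strand (CACGT when read on the other), the GCGTG core on either strand (CACGC when read on the other) and, in Ldha, TGACGTCA; overlapping matches are joined in 1 run.
Egln3, minus strand, chr12:54203875-54204124: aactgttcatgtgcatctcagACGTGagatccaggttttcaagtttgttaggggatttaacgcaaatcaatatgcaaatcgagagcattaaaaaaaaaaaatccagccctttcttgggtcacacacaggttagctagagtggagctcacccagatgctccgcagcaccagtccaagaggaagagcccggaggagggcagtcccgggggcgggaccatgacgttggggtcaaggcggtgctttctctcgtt
Pgam1, plus strand, chr19:41911621-41911870: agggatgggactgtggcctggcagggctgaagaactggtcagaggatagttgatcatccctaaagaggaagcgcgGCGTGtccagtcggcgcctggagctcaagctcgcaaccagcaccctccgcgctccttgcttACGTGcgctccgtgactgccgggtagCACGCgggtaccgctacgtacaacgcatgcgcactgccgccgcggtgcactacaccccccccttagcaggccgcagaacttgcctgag
Slc16a1, plus strand, chr3:104638414-104638663: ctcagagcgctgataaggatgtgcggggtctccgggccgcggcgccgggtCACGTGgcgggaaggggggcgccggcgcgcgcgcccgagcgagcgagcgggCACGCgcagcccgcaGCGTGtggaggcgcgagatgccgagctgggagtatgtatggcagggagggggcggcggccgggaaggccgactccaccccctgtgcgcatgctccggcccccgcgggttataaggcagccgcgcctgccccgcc
Ldha, plus strand, chr7:46845554-46845803: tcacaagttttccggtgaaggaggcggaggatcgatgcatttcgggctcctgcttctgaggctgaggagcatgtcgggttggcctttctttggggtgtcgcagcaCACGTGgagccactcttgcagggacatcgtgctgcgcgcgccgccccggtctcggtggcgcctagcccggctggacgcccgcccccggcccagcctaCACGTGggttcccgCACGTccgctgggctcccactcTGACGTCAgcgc
The Egln3 stretch held a single run, which began 229 bases before the start. The Pgam1 stretch held 3 runs, beginning 175, 114 and 88 bases before the start, and the Slc16a1 stretch 3, beginning at 200, 149 and 134 bases. In Ldha, CACGTG began 145 and 48 bases before the start, CACGT 34 bases before it and TGACGTCA 12 bases before it.

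**Figure D1:**
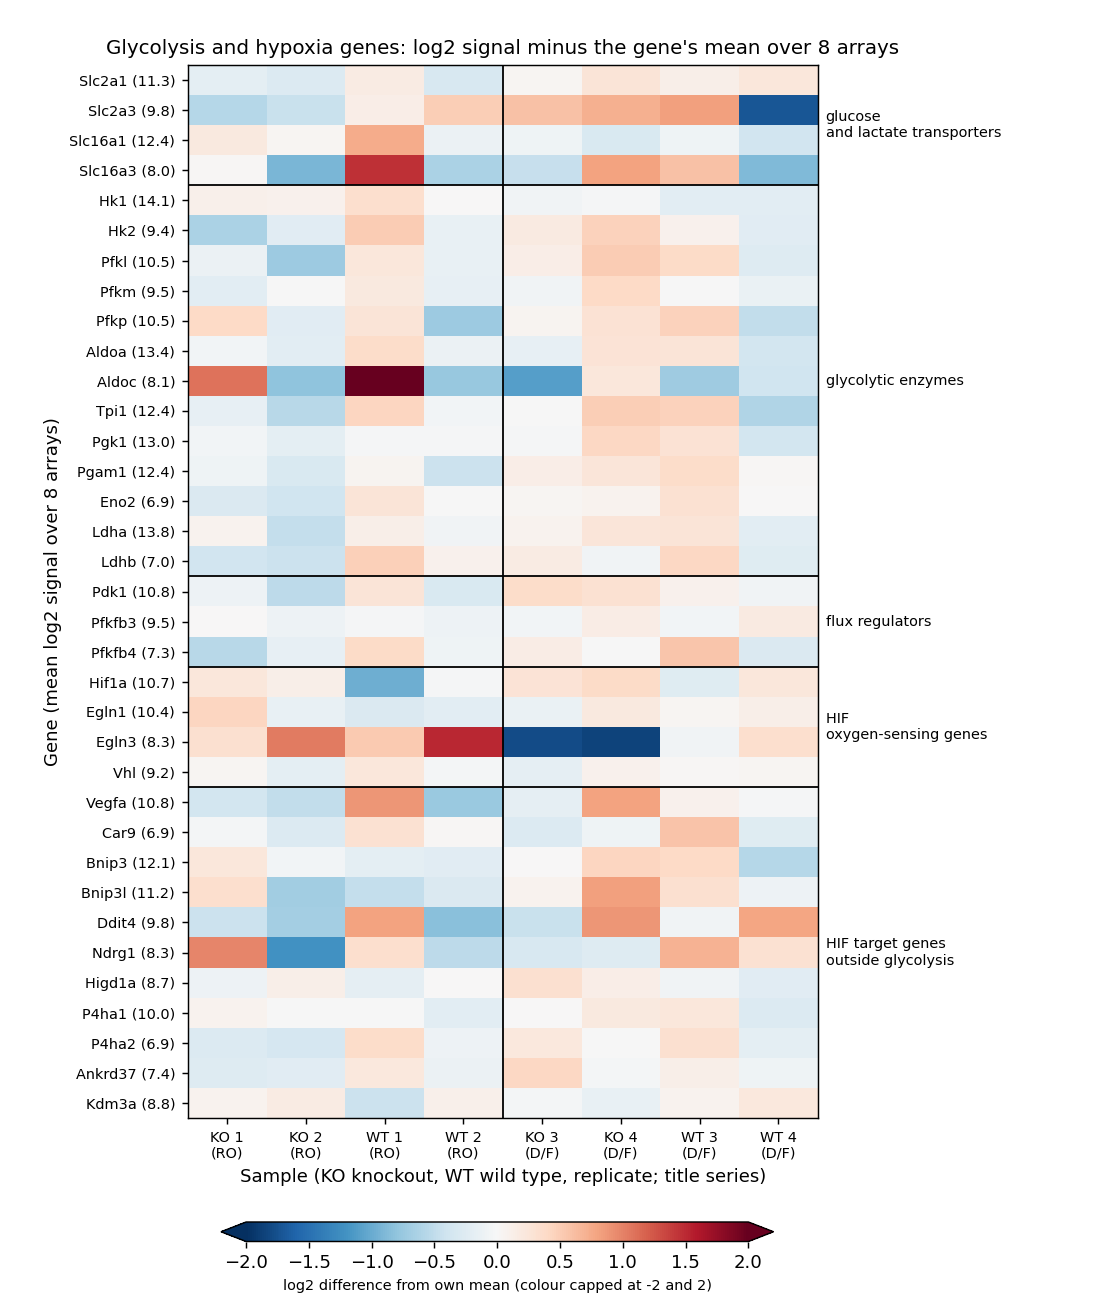
Deviation of each gene's log2 signal from its own mean over the 8 arrays, with genes in rows (mean signal in brackets), samples in columns (RO titles left, D/F titles right) and colour capped at -2 and 2. Egln3 is lowest in both D/F-titled knockout samples (6.48 and 6.42), and most bright glycolytic enzymes are above their mean in knockout replicate 4 and wild-type replicate 3.

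Across the 35 genes, no gene changed with genotype, with the title pattern, or in how far the genotype difference differed between the title patterns, at an adjusted p under 0.05. By genotype 0 of 35 genes were called by limma, against 1 of 19937 (0.00502%), and 2 had an unadjusted p under 0.05 (2.25% of all genes). Hif1a had the higher signal in the knockout (0.537% of all genes had such a p and a higher signal) and Egln3 the lower (1.72%). By title 0 were called (0.0201% of all genes) and 6 had an unadjusted p under 0.05 (3.12% of all genes). Of these 6, Slc2a1, Pgam1 and Bnip3l were higher in D/F-titled samples (1.46% of all genes) and Slc16a1, Hk1 and Egln3 lower (1.66%). For the difference between the genotype differences 0 were called (0.0301%) and 3 had an unadjusted p under 0.05 (5.38%), Slc2a3 and Hk2 with a positive sign (3.42% of all genes) and Egln3 with a negative one (1.96%). That difference was positive for 25 of the 35 genes (71.6% of all genes). For no gene did all knockout samples lie on one side of all wild-type samples, which 1.29% of all genes did. On simulated data with the genotype design, 48% of genes with a log2 change of 1 were called, and 96% with a change of 2. For the difference between the genotype differences the shares were 4% and 38%. The simulated noise was normal and independent between genes, with 50 genes changed at each size. These shares need not hold on the real arrays, where Jun (-2.38) and Cdk6 (-2.48) were not called by genotype.

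The median genotype difference of the 35 genes changed sign after centring on array medians, but not after quantile normalization. Signal was lower in the knockout on average for 21 of the 35 genes (60% against 72% of all genes), with a median difference of -0.071 against -0.11 over all genes. After centring each array on its median the median of all genes was 0.059 and that of the 35 genes 0.10. After quantile normalization they were -0.0041 and -0.074. Of the 35 genes, 10 were lower in the knockout after centring and 21 after quantile normalization. By title, 29 of 35 genes were higher in D/F samples (63.8% of all genes), with a median of 0.16 against 0.051. Counts of genes by sign are therefore given below as a description of the deposited values.

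**Figure D2:**
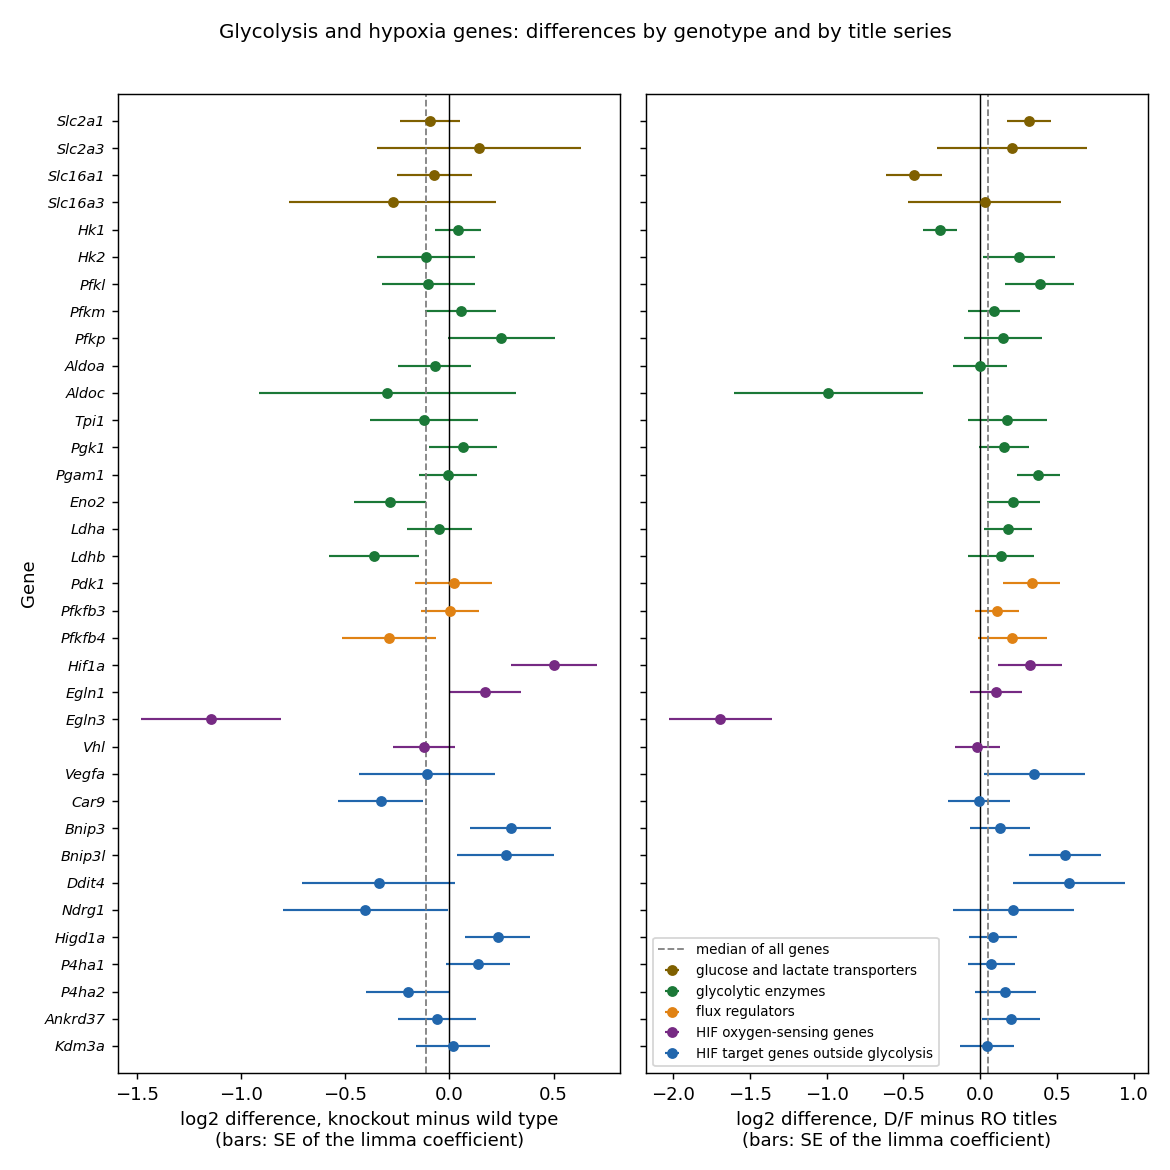
Differences of the log2 signal of each gene, knockout minus wild type at left and D/F minus RO titles at right, as points with the SE of the limma coefficient over 8 arrays; colours mark the 5 gene groups and the dashed line the median of all 19937 genes. Egln3 is lowest in both panels (-1.14 and -1.69) and Hif1a is highest by genotype (0.50).

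The oxygen-sensing genes held the 2 genes of smallest genotype p, with opposite signs. Egln3, a prolyl hydroxylase that is itself a HIF target, had a signal of 8.58 and 9.30 in the RO-titled knockout samples, 8.79 and 9.78 in the RO-titled wild-type samples, 6.48 and 6.42 in the D/F-titled knockout samples and 8.19 and 8.60 in the D/F-titled wild-type samples. Both D/F-titled knockout samples lay below the other 6, with a gap of 1.71 to the next sample, and the other 6 ran from 8.19 to 9.78. The signal in those 2 samples was below the array median. The knockout minus wild type difference was -1.14 (SE 0.34, adjusted p = 0.878), and the D/F minus RO difference -1.69 (SE 0.34, adjusted p = 0.205), a 3.23-fold lower signal in D/F samples. The difference between the 2 genotype differences was -1.60 (SE 0.50, adjusted p = 0.716). Within D/F titles alone the genotype difference was -1.94 (SE 0.34), which passed in the limma fit of those 4 arrays (adjusted p = 0.00173; 1 of 35 genes and 0.396% of all genes called). That fit has 2 residual degrees of freedom and took its spread mostly from the average over genes (29.4 prior degrees of freedom). Within RO titles it was -0.34 (SE 0.38, adjusted p = 0.606; 0 of 35 genes and 0.161% of all genes called). Between knockout samples alone the title difference was -2.49 (SE 0.25, limma adjusted p = 0.0881; 0 of 35 and 0.0552% called). In that fit 13 of the 35 genes had an unadjusted p under 0.05, against 20% of all genes. Of the 13, 11 were higher in D/F, and 3348 of all 19937 genes had such a p and a higher signal. The title difference of Egln3 also passed in limma with array weights (-2.11, adjusted p = 0.0211) and without wild-type replicate 1 (-2.05, adjusted p = 0.0379). It did not pass in the other limma settings with 1 value per gene on 7 or 8 arrays, where its adjusted p ran from 0.164 (without wild-type replicate 3) to 0.759 (arrays centred on their medians). Over all genes, 389 (1.95%) had both D/F-titled knockout samples below the other 6. Egln3 was the only one of the 35 among them, and no other gene had a gap as wide, a pattern looked for after its values were seen.

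Hif1a encodes the oxygen-labile HIF-1α subunit. Its signal was 10.95, 10.84, 10.99 and 11.10 in knockout and 9.74, 10.70, 10.48 and 10.95 in wild-type samples, with means of 10.97 ± 0.11 and 10.47 ± 0.52 (SD, n = 4 each). The knockout samples were close to each other, and the wild-type samples ran from 9.74 in replicate 1 up into the knockout range. The difference of 0.50 (limma, SE 0.21, adjusted p = 0.878) did not pass, and was 0.28 to 0.66 when each sample was left out in turn. By title it was 0.32 (SE 0.21). Egln1, the main oxygen-sensing hydroxylase in most cells, had signals of 10.80, 10.21, 10.22 and 10.55 in knockout and 10.08, 10.15, 10.40 and 10.48 in wild-type samples, with a genotype difference of 0.17 (SE 0.17). Vhl, which encodes the part of the ligase that recognises hydroxylated HIF, had 9.28, 9.05, 9.07 and 9.32 in knockout and 9.46, 9.20, 9.26 and 9.28 in wild-type samples (-0.12, SE 0.15). Neither of these 2 genes stood apart by genotype or title. Among the 13 other genes of the HIF pathway, 9 were lower and 4 higher in the knockout on average (69.2% lower, against 72% of all genes). Of these genes 0 passed. The smallest genotype p was that of Hif3a, a HIF alpha paralogue, with a signal of 6.14 to 7.05 and a difference of -0.40 (limma, SE 0.19, adjusted p = 0.878). Next came Elob and Eloc, the elongin subunits of the VHL ligase, at -0.22 and 0.34 (SE 0.15 and 0.25), and Cul2, its cullin, at 0.33 (SE 0.29). By title Elob (-0.25), the ligase RING subunit Rbx1 (-0.20), the coactivator Ep300 (0.11) and the asparaginyl hydroxylase Hif1an (0.10) had the smallest p, and none passed (adjusted p = 0.9999 for each).

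**Figure D3:**
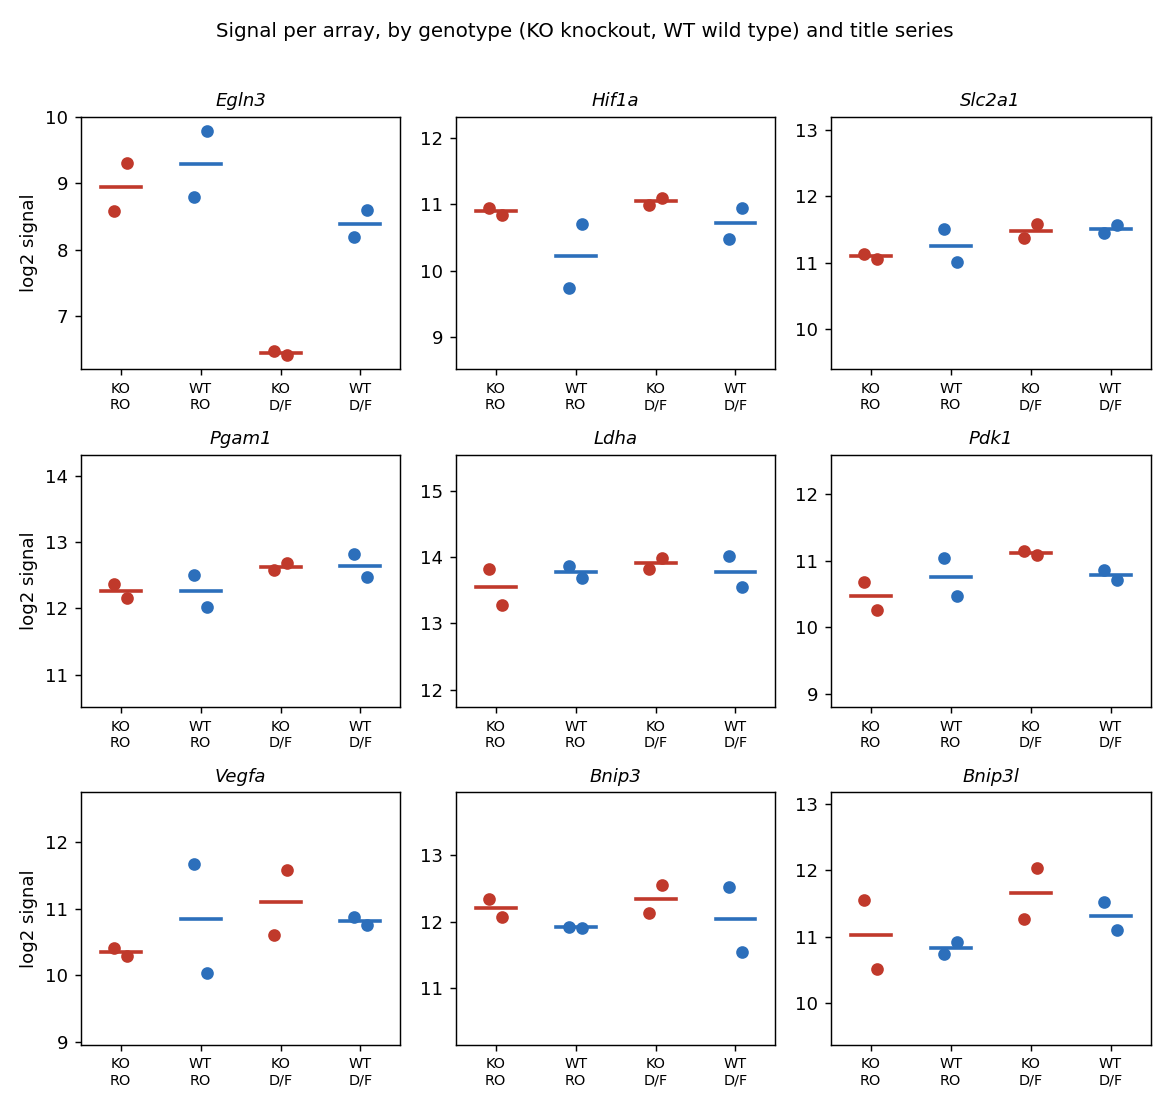
Log2 signal of 9 genes on each array (points), by genotype (KO knockout, WT wild type) and title pattern, with the mean of each pair as a bar; the axes do not start at 0 and each panel has its own range. For Egln3 the D/F-titled knockout samples (6.48 and 6.42) lie below all others, while the genotypes overlap in every panel.

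Transport of glucose and lactate was measured by 4 genes, of which 3 were lower and 1 higher in the knockout on average and 0 passed. Of all genes 72% were lower. Slc2a1, the glucose transporter GLUT1, had a signal of 11.13, 11.06, 11.37 and 11.58 in knockout and 11.50, 11.003, 11.44 and 11.56 in wild-type samples. The genotypes overlapped, and among the RO-titled samples only wild-type replicate 1 reached the range of the D/F-titled ones. The genotype difference was -0.093 (SE 0.14) and the title difference 0.32 (limma, SE 0.14, adjusted p = 0.9999). Slc16a1, the lactate transporter MCT1, was 12.60, 12.45, 12.32 and 12.10 in knockout and 13.15, 12.28, 12.32 and 12.02 in wild-type samples. Its title difference was -0.43 (SE 0.18, adjusted p = 0.9999), and wild-type replicate 1 was highest.

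Slc2a3, the high-affinity glucose transporter GLUT3, had a signal of 9.22 and 9.34 in RO-titled knockout samples, 9.92 and 10.28 in RO-titled wild-type samples, 10.39 and 10.51 in D/F-titled knockout samples and 10.61 and 8.08 in D/F-titled wild-type samples. Wild-type replicate 4 was the lowest sample, and the next lowest was 9.22 in knockout replicate 1. The genotype difference was -0.82 within RO and 1.10 within D/F titles, and the difference of the 2 was 1.92 (limma, SE 0.82, adjusted p = 0.716). Slc16a3, the lactate exporter MCT4 and a HIF target, had 8.05, 7.12, 7.57 and 8.84 in knockout and 9.50, 7.40, 8.62 and 7.15 in wild-type samples, with no order by genotype (-0.27, SE 0.50) or title (0.032, SE 0.50).

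The 13 measured glycolytic enzymes did not separate by genotype. Signal was lower in the knockout on average for 9 and higher for 4 (72% of all genes were lower), with a median of -0.071 and 0 genes called. The median was 0.10 after centring and -0.097 after quantile normalization, so its sign changed with centring alone. Within RO titles 12 of the 13 were lower, as were 14645 of all 19937 genes (median -0.25, equal at 2 decimals to that of all genes). Within D/F titles 10 were higher, as were 10440 of all genes (median 0.16 against 0.0097). By title 11 of 13 were higher in D/F samples (63.8% of all genes), with a median of 0.16 against 0.051 over all genes. The median title difference was 0.36 among knockout samples, against 0.17 over all genes. Among wild-type samples it was -0.084, against -0.070 over all genes.

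Most of the enzymes lay above the array median in every sample. Ldha, the lactate dehydrogenase subunit that favours lactate and whose promoter is printed above, had a signal of 13.82, 13.27, 13.82 and 13.99 in knockout and 13.86, 13.69, 14.01 and 13.54 in wild-type samples, with means of 13.73 ± 0.31 and 13.78 ± 0.20 (SD, n = 4 each). The spread within each genotype was wider than the difference of -0.048 (SE 0.16). Pgam1, a phosphoglycerate mutase, had 12.36, 12.15, 12.50 and 12.02 in the RO-titled samples (knockout replicates 1 and 2, then wild-type replicates 1 and 2) and 12.57, 12.69, 12.81 and 12.47 in the D/F-titled samples (knockout, then wild-type replicates 3 and 4). The title patterns overlapped only in that wild-type replicate 1 lay above wild-type replicate 4. Its title difference of 0.38 (limma, SE 0.14, adjusted p = 0.9999) did not pass, and its genotype difference was -0.0074. The number of its probe set falls between those of Ldha and Aldoa on chromosome 7, while the gene Pgam1 lies on chromosome 19. These values may therefore not be those of Pgam1. Pfkl, the liver-type phosphofructokinase, had 10.39, 9.79, 10.65 and 11.03 in knockout and 10.75, 10.36, 10.90 and 10.26 in wild-type samples (0.39 by title, SE 0.22), and Pfkp, the platelet type, 10.85, 10.24, 10.51 and 10.74 and 10.72, 9.74, 10.92 and 9.97 (0.25 by genotype, SE 0.25). Knockout replicate 2 was lowest for Pfkl and wild-type replicate 2 for Pfkp. Of the others, Aldoa (aldolase A) ran from 12.99 to 13.72, Tpi1 (triosephosphate isomerase) from 11.75 to 12.85, Pgk1 (phosphoglycerate kinase) from 12.67 to 13.45, Pfkm (muscle-type phosphofructokinase) from 9.29 to 9.90 and Hk2 (the inducible hexokinase) from 8.79 to 9.93, with genotype differences of -0.071, -0.12, 0.066, 0.054 and -0.11. For Hk2 the RO-titled samples were 8.79 and 9.19 in knockout and 9.93 and 9.27 in wild type and the D/F-titled samples 9.60 and 9.88 and 9.51 and 9.20, so the knockout pair was lower within RO and higher on average within D/F titles (0.997, SE 0.38, limma adjusted p = 0.716).

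Eno2 and Ldhb lay below the array median in most samples, and Aldoc varied widely. Eno2, the neuronal enolase, had 6.61, 6.51, 6.94 and 6.98 in knockout and 7.16, 6.89, 7.20 and 6.92 in wild-type samples and was below the array median on all 8 arrays. Ldhb, the lactate dehydrogenase subunit that favours pyruvate, had 6.61, 6.56, 7.16 and 6.93 and 7.47, 7.08, 7.41 and 6.75 and was below the median on 7. These 2 had the smallest genotype p among the enzymes (differences -0.28, SE 0.17, and -0.36, SE 0.22; limma adjusted p = 0.878 for both), and at such signals a difference of array medians enters the value. The other Ldhb probe set gave -0.37 by genotype. It gave -0.96 within RO and 0.22 within D/F titles, against -0.69 and -0.035 for the one used. Its number follows that of Tpi1 on chromosome 6, where Ldhb also lies, while that of the one used does not. Aldoc, the brain-type aldolase, had 9.16, 7.26, 6.97 and 8.29 in knockout and 10.52, 7.31, 7.36 and 7.68 in wild-type samples. Wild-type replicate 1 was 11.8-fold above the lowest sample. Its title difference was -0.99 (SE 0.62) in all samples and -1.40 among wild-type samples alone, where it passed in limma (adjusted p = 0.0253; 1 of 35 genes and 0.798% of all genes called). In that fit the moderated spread was wholly that averaged over genes, although the 2 RO-titled wild-type values were 10.52 and 7.31.

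Hk1, the constitutive hexokinase, was measured by a probe set of doubtful identity. The brightest single-symbol probe set for Hk1 read 14.17, 14.15, 13.997 and 14.05 in knockout and 14.40, 14.08, 13.86 and 13.85 in wild-type samples, and it was the only one of the 35 with all D/F-titled samples below all RO-titled ones (0.983% of all genes). Its difference was -0.26 by title (limma, SE 0.11, adjusted p = 0.9999) and 0.043 by genotype. The title patterns did not overlap for 1.96% of all genes. The only sequence accession listed for it is shared by 17 probe sets, 15 of which also carry the ribosomal protein gene Rpl17. The other single-symbol Hk1 probe set, which lists RefSeq transcripts, read 9.50, 8.43, 7.99 and 8.16 in knockout and 9.21, 9.26, 9.16 and 8.52 in wild-type samples. With it the genotype difference was -0.51 (SE 0.24, adjusted p = 0.878) and the title difference -0.65 (SE 0.24, adjusted p = 0.9999), and the samples overlapped in both. For Gapdh, a glycolytic dehydrogenase, the 11 probe sets with several symbols had mean signals from 5.53 to 14.14 and genotype differences from -0.31 to 0.12, and in 0 of the 11 did the genotypes separate.

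The bright enzymes moved together from sample to sample, across genotype and title. The 7 enzymes other than Hk1 with a mean signal over 10 were Pfkl, Pfkp, Aldoa, Tpi1, Pgk1, Pgam1 and Ldha. Pgam1 was counted by a probe set that may not lie at the gene. All 7 were above their own mean in knockout replicate 4 and in wild-type replicate 3, 6 in wild-type replicate 1, 4 in knockout replicate 3, 2 in knockout replicate 1, 1 in wild-type replicate 4 and 0 in knockout replicate 2 and wild-type replicate 2. The share of all genes with a mean signal over 10 that were above their own mean was 44.9% in knockout replicate 4, 41.0% in wild-type replicate 3, 59.8% in knockout replicate 2 and 56.8% in wild-type replicate 2. The median deviation of the 7 enzymes was -0.057, -0.30, 0.048 and 0.28 in the knockout samples and 0.23, -0.12, 0.37 and -0.37 in the wild-type samples. After quantile normalization these medians were -0.074, -0.33, -0.0016 and 0.31, and 0.15, -0.15, 0.45 and -0.30. Each title pattern thus held a wild-type sample in which these enzymes were high and one in which they were low. Pkm, a pyruvate kinase gene in a list of other glycolysis genes, had 12.13, 11.81, 12.28 and 12.67 in knockout and 12.62, 12.14, 12.68 and 11.80 in wild-type samples. The signal limit of 10 was chosen after the values were seen, and the genes are not independent of each other.

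**Figure D4:**
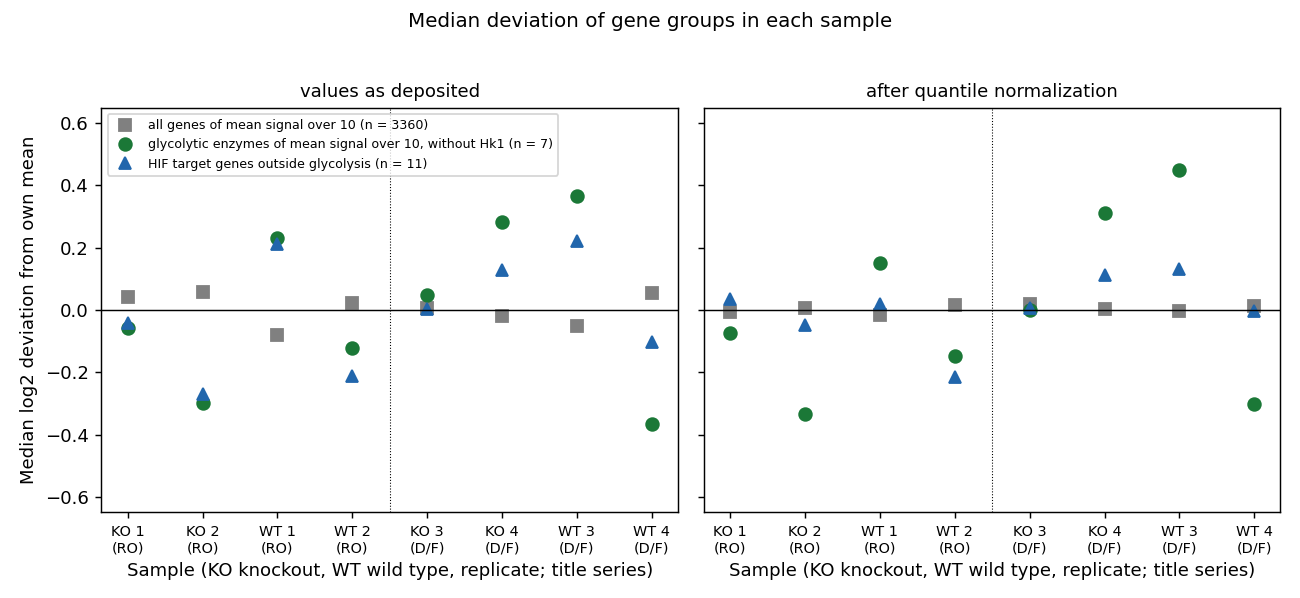
Median log2 deviation from each gene's own mean in every sample, for all 3360 genes with a mean signal over 10 (squares), the 7 glycolytic enzymes over 10 other than Hk1 (circles) and the 11 HIF target genes outside glycolysis (triangles), as deposited at left and after quantile normalization at right. The enzymes are highest in wild-type replicate 3 (0.37 and 0.45), and wild-type replicate 4 (-0.37 and -0.30) is among the 2 lowest in both panels.

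The regulators of glycolytic flux overlapped between genotypes. Pdk1, the kinase that inhibits pyruvate dehydrogenase and a HIF target, had a signal of 10.68, 10.25, 11.14 and 11.09 in knockout and 11.04, 10.47, 10.86 and 10.71 in wild-type samples. Its genotype difference was 0.020 (SE 0.18) and its title difference 0.34 (SE 0.18). Pfkfb3 and Pfkfb4 make and break down the sugar bisphosphate that activates phosphofructokinase. Pfkfb3 read 9.53, 9.41, 9.46 and 9.66 in knockout and 9.48, 9.41, 9.45 and 9.70 in wild-type samples, the narrowest range of the 35 genes, and Pfkfb4 read 6.78, 7.17, 7.49 and 7.34 and 7.73, 7.26, 7.90 and 7.05 (-0.29, SE 0.23).

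Among the genes of pyruvate entry and the pentose phosphate pathway, 9 of 18 were lower and 9 higher in the knockout on average and 0 passed. Of all genes 72% were lower. Pdk3, a paralogue of Pdk1, had 10.99, 10.98, 10.98 and 10.70 in knockout and 9.80, 10.48, 10.63 and 10.37 in wild-type samples, so that all knockout samples were above all wild-type samples (0.266% of all genes). Its difference of 0.59 (SE 0.18, limma adjusted p = 0.878) did not pass. The next were the dehydrogenase complex genes Dld (0.31), Pdhb (0.21) and Pdhx (0.17). By title the pyruvate dehydrogenase phosphatases Pdp2 (0.20) and Pdp1 (-0.17), Pdha1 (0.15) and the pentose isomerase Rpia (-0.14) came first. Of 30 other glycolysis genes, 25 were lower and 5 higher in the knockout on average (83.3% lower, against 72% of all genes), and 0 passed. Their median was -0.15 against -0.11 over all genes, and -0.0038 after quantile normalization. After quantile normalization 16 of the 30 were lower, and 11 after centring. For 1 of the 30, Tigar, a phosphatase that restrains glycolysis, named after its values were seen, the highest knockout sample was lower than the lowest wild-type sample (1.03% of all genes), with a difference of -0.17 (SE 0.14, limma adjusted p = 0.878). The smallest genotype p was that of the testis isozyme Pgk2 (-0.36, SE 0.20, signal 5.66 to 6.53), followed by the sugar transporters Slc2a2 (-0.30), Slc2a6 (-0.34) and Slc2a9 (0.23). By title the gluconeogenic phosphatase Fbp1 (-0.87, SE 0.53), Eno4 (0.25), Slc2a9 (-0.19) and Fbp2 (0.18) came first.

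The 11 HIF target genes outside glycolysis split 6 lower and 5 higher in the knockout on average (72% of all genes were lower), with a median of -0.059 and 0 genes called. The median was 0.11 after centring and 0.079 after quantile normalization. By title 10 of the 11 were higher in D/F samples (63.8% of all genes), with a median of 0.17 against 0.051 over all genes. The 13 enzymes had medians of -0.071 by genotype and 0.16 by title on the same scale, and the difference between the groups was not tested.

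Vegfa, the vascular growth factor, had a signal of 10.42, 10.29, 10.61 and 11.59 in knockout and 11.67, 10.04, 10.87 and 10.76 in wild-type samples. Wild-type replicate 1 and knockout replicate 4 were high, and the genotype difference of -0.11 (SE 0.33) was smaller than the spread within either genotype (0.59 and 0.67, SD, n = 4 each). Ddit4, an inhibitor of mTORC1 that is induced by hypoxia and other stresses, had 9.39, 9.14, 9.39 and 10.71 in knockout and 10.63, 8.99, 9.75 and 10.62 in wild-type samples, and knockout replicate 4 stood above the other knockout samples, which reached 9.39. Its title difference was 0.58 (SE 0.37).

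The mitophagy receptors Bnip3 and Bnip3l were bright. Bnip3 read 12.34, 12.07, 12.13 and 12.55 in knockout and 11.93, 11.90, 12.53 and 11.55 in wild-type samples, a difference of 0.29 (SE 0.19, limma adjusted p = 0.878) that was 0.29 within RO and 0.30 within D/F titles. Wild-type replicate 3 lay among the knockout samples. Leaving out wild-type replicate 4 gave 0.097 and leaving out wild-type replicate 3 gave 0.49, the ends of the range over single arrays left out. A second Bnip3 probe set with a lower mean signal gave 0.36, with 0.49 within RO and 0.22 within D/F titles. Its number follows that of Aldoa on chromosome 7, where Bnip3 also lies. The number of the brighter Bnip3 probe set does not, so the brighter one may read a copy. Bnip3l read 11.55, 10.51, 11.27 and 12.03 and 10.73, 10.92, 11.52 and 11.10, with a genotype difference of 0.27 (SE 0.23) and a title difference of 0.55 (limma, SE 0.23, adjusted p = 0.9999). Its second probe set gave 0.096 and 0.55.

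Car9, the carbonic anhydrase at the cell surface that serves as a hypoxia marker, was below the array median on 7 of 8 arrays, with 6.87, 6.64, 6.65 and 6.83 in knockout and 7.23, 6.93, 7.48 and 6.67 in wild-type samples (-0.33, SE 0.20). Higd1a, which encodes a small mitochondrial protein, read 8.59, 8.81, 9.01 and 8.82 and 8.51, 8.70, 8.62 and 8.47 (0.23, SE 0.16), and a dimmer probe set for it gave 0.15. The difference was 0.095 within RO and 0.37 within D/F titles, and 0.28 and 0.022 with the dimmer probe set. By its number the dimmer one comes after Pfkfb4 on chromosome 9, where Higd1a also lies. The brighter one does not and may read a copy. Ndrg1, a stress-responsive gene, ran from 7.10 to 9.28 (-0.40, SE 0.40). Its genotype difference was -0.023 within RO and -0.78 within D/F titles (limma adjusted p = 0.985 and 0.537), and leaving out single arrays gave values between -0.92, when knockout replicate 1 was dropped, and -0.044, when knockout replicate 2 was. Signals of P4ha1 and P4ha2, collagen prolyl hydroxylase subunits, ran from 9.77 to 10.27 and from 6.53 to 7.23, Ankrd37 from 7.14 to 7.81 and Kdm3a, a histone demethylase, from 8.42 to 9.06. Genotype differences of the last 4 lay between -0.20 and 0.14.

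Of 36 other hypoxia-responsive genes, 25 were lower and 11 higher in the knockout on average (69.4% lower, against 72% of all genes), and 0 passed. Their median was -0.12, and -0.039 after quantile normalization. Hmox1, the heme oxygenase induced by oxidative stress, had 8.498, 7.89, 8.55 and 7.74 in knockout and 9.16, 8.39, 9.39 and 9.18 in wild-type samples, a difference of -0.86 (SE 0.25, limma adjusted p = 0.878), and only wild-type replicate 2 lay within the knockout range. Plod1, a collagen lysyl hydroxylase (-0.62), the adenylate kinase Ak4 (-0.55) and the growth factor Pdgfb (-0.31) followed. By title the oxidoreductase Ero1a was higher on average in D/F samples (0.42, SE 0.17, adjusted p = 0.9999), and Ak4 (-0.55), the repressor Bhlhe40 (0.76) and the lipid droplet gene Hilpda (0.40) came next.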

How the data were processed

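The authors deposited log2 values for 34760 probe sets, 1 column per sample. The submitters' processing notes name MAS5, with settings not given in the sources used here. MAS5 was built for arrays with mismatch probes, which this design lacks, so how the signals were made is uncertain. The log base was read from the values, since the mean of the linear values with 2% trimmed was 500 on each array. Such a scaling fixes the mean of an array and not its median, so dim genes shift between arrays. No detection calls were used, and the size of a difference between dim signals is uncertain.

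Per the labels' protocols, 200 ng of Trizol-extracted, column-purified RNA was primed with random hexamers and labelled with the Affymetrix whole-transcript kit. Probe sets were named from the platform annotation, with 21640 carrying 1 symbol, 1321 several and 11799 none. Entrez identifiers of 21553 probe sets matched a RefSeq gene table of GRCm38.p6, and 0 symbols were updated. Each gene took its single-symbol probe set of highest mean, giving 19937 genes, 954 of them with more than 1 such probe set.

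Genotype came from the genotype label and the title pattern from the sample titles, and replicates were numbered in order of deposit. For the log2 values, models were fitted by lmFit and eBayes, with a trend, of limma 3.58.1 (R 4.3.3), with genotype and title pattern as terms, and p-values were adjusted by Benjamini-Hochberg over all genes, with a threshold of 0.05. A second fit added their interaction. Each SE is that of the moderated coefficient. The fit was tested on simulated data with 19937 genes. Jun and Cdk6 also had a 2-sided exact permutation test over 70 assignments, which took no account of the title pattern.

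The genes, lists and tests were chosen with earlier results of these data known. Lists are described by counts and medians, without a test. Values of every sample are printed, in each of the 5 groups, for the 4 genes of smallest genotype p and the 3 of smallest title p, and for Hif1a, Vegfa, Slc2a1, Ldha, Pdk1 and Bnip3; other genes are given by ranges, apart from Hk2, Pkm and the genes of another list whose values bear on a comparison. Each further list is named by its 4 genes of smallest p in either contrast. Alternatives were quantile normalization, centring on array medians, bright genes only, averaged probe sets of a gene, every probe set, eBayes without trend or with robust priors, array weights, no term for the other factor, the title pattern as a random block, each title pattern or genotype alone, and each array left out. The Hk1 probe set with RefSeq transcripts was an alternative added after seeing the data.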

Additional observations from a re-analysis of the deposited data

Results flagged for a closer look

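In 70 groups of 4 samples, 35 genes in each genotype, 2 had a highest or lowest sample far from the rest of its group by Dixon's test, where chance gives about 1 in 20, or 3.5. Aldoc in wild-type replicate 1 was 10.52, and the next wild-type sample was 7.68. Ddit4 in knockout replicate 4 was 10.71, and the next knockout sample was 9.39. The difference between the genotype differences, D/F minus RO titles, had an unadjusted p under 0.05 for 3 genes, which 5.38% of all genes had, and none passed the limma adjustment (adjusted p = 0.716 for each). It was 1.92 for Slc2a3, 0.997 for Hk2 and -1.60 for Egln3.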

How the results depend on the processing

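No paired analysis was possible because the labels carry no replicate numbers, and the numbers used here follow the order of deposit. The count of all genes called by genotype was 1, and 0 after centring on array medians or among bright genes, 2 with array weights, 32 in RO-titled and 79 in D/F-titled samples alone, and 0 to 2 with 1 array left out. By title it was 4, and 0 among bright genes, 12 with every probe set or robust priors, 20 with array weights, 11 in knockout and 159 in wild-type samples alone, and 0 to 18 with 1 array left out. For the interaction it was 6, and 0 among bright genes or with array weights, 10 with every probe set or robust priors, and 6 to 38 with 1 array left out. Jun passed the adjustment with array weights (-2.71, adjusted p = 0.0206), in RO-titled samples alone (-2.10, 0.0195), in D/F-titled samples alone (-2.67, 8.47e-05) and without wild-type replicate 3, with -2.68 to -1.97 over the arrays left out. Cdk6 passed in D/F-titled samples alone (-3.09, adjusted p = 0.000238) and ran from -3.03 to -1.70 over the arrays left out. With 1 array left out, the median of the glycolytic enzymes ran from -0.23 to 0.087 by genotype and from 0.061 to 0.32 by title, and that of the HIF targets from -0.15 to 0.054 and from 0.078 to 0.30.

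After centring, the genotype difference changed sign for Slc2a1 (0.079), Slc16a1 (0.098), Hk2 (0.060), Pfkl (0.070), Aldoa (0.10), Tpi1 (0.049), Pgam1 (0.16), Ldha (0.12), Vhl (0.051), Vegfa (0.063) and Ankrd37 (0.11), and the title difference for Slc16a3 (-0.037), Aldoa (-0.066) and Kdm3a (-0.023). After quantile normalization it changed sign by genotype for Pdk1 (-0.0032) and Ankrd37 (0.13) and by title for Slc16a3 (-0.044). For Hk1 the genotype difference was -0.23 with the mean of its probe sets and -0.51 with the probe set that lists RefSeq transcripts. No genotype difference among the 35 genes passed in any of these settings over all samples or with 1 array left out, and the cause of the changes of sign was not tested. Leaving out 1 array turned the sign by genotype for 19 genes, with ranges of -0.18 to 0.019 for Slc2a1, -0.56 to 0.45 for Slc2a3, -0.22 to 0.12 for Slc16a1, -0.69 to 0.26 for Slc16a3, -0.27 to 0.12 for Hk2, -0.30 to 0.092 for Pfkl, -0.074 to 0.16 for Pfkm, -0.23 to 0.063 for Aldoa, -0.86 to 0.43 for Aldoc, -0.42 to 0.059 for Tpi1, -0.099 to 0.17 for Pgk1, -0.10 to 0.087 for Pgam1, -0.18 to 0.096 for Ldha, -0.073 to 0.20 for Pdk1, -0.042 to 0.056 for Pfkfb3, -0.38 to 0.30 for Vegfa, -0.64 to 0.029 for Ddit4, -0.19 to 0.054 for Ankrd37 and -0.14 to 0.098 for Kdm3a. By title it did so for 12 genes, with ranges of -0.11 to 0.91 for Slc2a3, -0.34 to 0.57 for Slc16a3, -0.036 to 0.20 for Pfkm, -0.060 to 0.33 for Pfkp, -0.12 to 0.16 for Aldoa, -0.013 to 0.48 for Tpi1, -0.078 to 0.044 for Vhl, -0.17 to 0.15 for Car9, -0.066 to 0.33 for Bnip3, -0.14 to 0.73 for Ndrg1, -0.027 to 0.17 for P4ha1 and -0.11 to 0.12 for Kdm3a.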
